A study of Mus musculus with 8 samples.

Results

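Transcripts of 9 genes that feed back on the Erk kinases were examined in blood stem and progenitor cells. They were the dual specificity phosphatase genes Dusp1, Dusp2, Dusp4, Dusp5 and Dusp6, the Sprouty genes Spry1 and Spry2, and the Sprouty-related genes Spred1 and Spred2. The genes were chosen by name for that role, with earlier results of these data known. All 9 were among the 18193 genes read by the arrays. Each gene was represented by its probe set (the group of short probes that reads a transcript) with the highest mean over all arrays, and its other probe sets served as a check. The cells were LSK cells, a sorted fraction low for lineage markers, positive for Sca1 and high for cKit that holds stem cells and multipotent progenitors. Of the 8 arrays, 4 were from heterozygous Jak2V617F mice and 4 from wild type mice, all of strain C57BL/6. Jak2 is the kinase bound to many cytokine receptors, and its V617F form is constitutively active and occurs in myeloproliferative neoplasms. The sources used here do not give age, sex, a treatment of the mice, or the Cre or promoter behind the mutant allele. All values below are log2 intensities, and all differences are Jak2V617F minus wild type on the log2 scale.

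Erk is the last kinase of the cascade from Ras through Raf and Mek, which cytokine receptors coupled to Jak2 and receptor tyrosine kinases such as Kit switch on in progenitors. Active Erk raises transcription of its own inhibitors. Dusp proteins remove phosphate from Erk or its relatives p38 and Jnk, and Sprouty and Spred proteins act upstream, between the receptor and Raf. Levels of these transcripts are widely used as readouts of Erk output, although several also answer to stress and to other pathways.

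No gene of the 9 was called different in Jak2V617F cells. Dusp6 and Spred1 were lower in every Jak2V617F array than in any wild type array, and Dusp4 and Spry2 lay lower in the mean with overlapping arrays. Dusp1, Dusp2, Dusp5, Spry1 and Spred2 differed by less than the spread between arrays. Over the 9 genes, 0 passed limma's adjusted threshold of 0.05, against 30 of all 18193 genes (0.165%). At an unadjusted limma p under 0.05 there were 4, Dusp4, Dusp6, Spry2 and Spred1, all lower in Jak2V617F cells, where 17.2% of all genes had such a p in either direction and 5.23% had one on the lower side. Groups did not overlap for 2 of the 9 genes, both lower in Jak2V617F cells, against 10.1% of all genes in either direction and 3.33% on the lower side. The median difference of the 9 genes was -0.09, with 5 below 0 and 4 above, whereas the median over all genes was 0.05, with 62.6% above 0. These shares describe a short list of genes that was picked by name, with earlier results of these data known. The list was therefore not blind to the data, and a set this small was not tested as a whole.

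**Figure D1:**
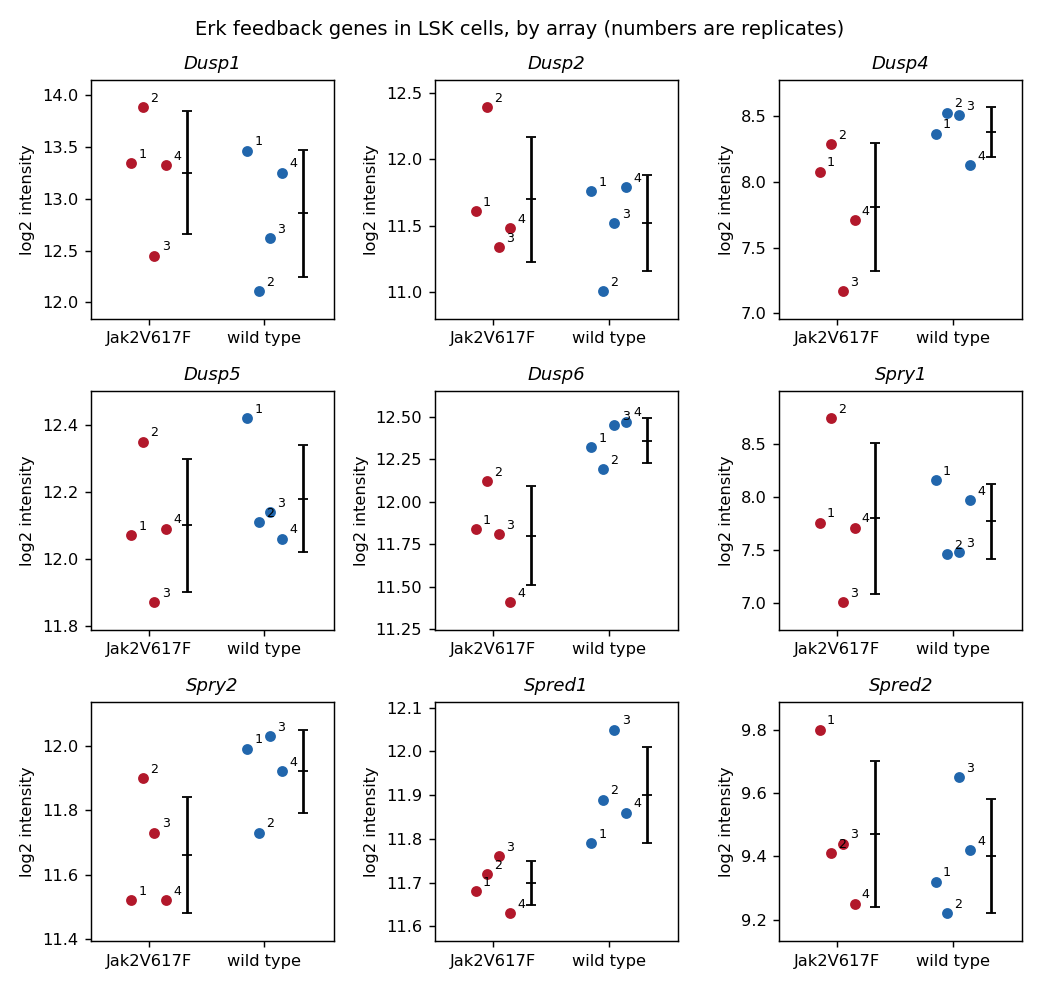
Log2 intensity of each gene in each array, Jak2V617F on the left in red and wild type on the right in blue, with replicate numbers beside the points and the mean ± SD of 4 arrays in black. Dusp6 and Spred1 are the genes whose groups do not overlap, and Dusp1, Dusp2 and Spry1 are highest in Jak2V617F replicate 2.

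The arrays correlated with each other at 0.991 to 0.995 over probe sets, and array medians lay between 7.06 and 7.15. Xist, which is transcribed from the inactive X chromosome, was high in Jak2V617F replicate 3 and in wild type replicates 1 and 2 and low in the other 5 arrays, so the sexes were unevenly placed in the groups. The 8 measured stem and progenitor markers had a mean level of 12.56 to 12.80 in Jak2V617F arrays and 12.63 to 12.82 in wild type arrays. With no other cell population on the arrays, these values compare the genotypes and do not check LSK identity. Kit averaged 12.67 ± 0.10 in Jak2V617F arrays and 12.65 ± 0.14 in wild type arrays (SD, n = 4 each), and Ly6a, which encodes Sca1, was not analysed here. Where a transcript should be absent, the Y-linked genes Eif2s3y, Kdm5d and Uty read 3.06 to 5.37 in the 3 arrays with high Xist, and Xist read 5.54 to 6.54 in the 5 others, which gives a rough idea of background. In sorted bulk cells, fewer cells of a type and less RNA per cell cannot be told apart.

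Dusp6 encodes the cytoplasmic phosphatase that acts selectively on Erk. It was at 11.84, 12.12, 11.81 and 11.41 in Jak2V617F replicates 1 to 4, and at 12.32, 12.19, 12.45 and 12.47 in wild type replicates 1 to 4. The groups did not overlap, by a margin of 0.06 between Jak2V617F replicate 2 and wild type replicate 2, and Jak2V617F replicate 4 was the lowest array. The means were 11.80 ± 0.29 in Jak2V617F cells and 12.36 ± 0.13 in wild type cells (SD, n = 4 each). The difference was -0.56 ± 0.14 (SE), or 0.677-fold, with a 95% interval of 0.542-fold to 0.847-fold. Its unadjusted limma p was 0.00334, rank 440 of 18193 genes, and its limma adjusted p was 0.137. The direction held in all 18 alternative fits, with differences from -0.69 to -0.43 and limma adjusted p from 0.0913 to 0.284. Dusp6 had 1 probe set, so no second reading was at hand.

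Dusp5 encodes a nuclear phosphatase that also acts selectively on Erk. It was at 12.07, 12.35, 11.87 and 12.09 in the Jak2V617F arrays and at 12.42, 12.11, 12.14 and 12.06 in the wild type arrays. The groups overlapped widely, with Jak2V617F replicate 2 and wild type replicate 1 as the high arrays. The difference was -0.09 ± 0.12 (SE), with a 95% interval from -0.36 to 0.18 and a limma adjusted p of 0.709. That interval covers 0.781-fold to 1.13-fold.

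Dusp4 encodes a nuclear phosphatase of Erk, p38 and Jnk. It was at 8.08, 8.29, 7.17 and 7.71 in the Jak2V617F arrays and at 8.37, 8.53, 8.51 and 8.13 in the wild type arrays. Only Jak2V617F replicate 2 reached into the wild type range, above wild type replicate 4, and Jak2V617F replicate 3 was the lowest. The means were 7.81 ± 0.49 in Jak2V617F cells and 8.38 ± 0.19 in wild type cells (SD, n = 4 each). The difference was -0.57 ± 0.22 (SE), or 0.673-fold, with a 95% interval of 0.477-fold to 0.951-fold, an unadjusted limma p of 0.0293 and a limma adjusted p of 0.246. It was -0.36 without Jak2V617F replicate 3 and -0.29 in the 5 arrays with low Xist alone, which leave that array out too.

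Dusp1 encodes the nuclear phosphatase Mkp-1, itself an immediate early gene, which acts on p38, Jnk and Erk. It was at 13.34, 13.88, 12.45 and 13.32 in the Jak2V617F arrays and at 13.46, 12.11, 12.62 and 13.25 in the wild type arrays. Both genotypes spanned more than a log2 unit, with Jak2V617F replicate 3 and wild type replicates 2 and 3 low and the other arrays high. The difference was 0.39 ± 0.35 (SE), with a 95% interval of 0.756-fold to 2.27-fold and a limma adjusted p of 0.572. It was 0.14 without wild type replicate 2 and 0.65 without Jak2V617F replicate 3.

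Dusp2 encodes a nuclear phosphatase first known from activated lymphocytes. It was at 11.61, 12.39, 11.34 and 11.48 in the Jak2V617F arrays and at 11.76, 11.01, 11.52 and 11.79 in the wild type arrays. The highest array was Jak2V617F replicate 2 and the lowest was wild type replicate 2, and the groups overlapped. The difference was 0.18 ± 0.25 (SE), with a 95% interval of 0.771-fold to 1.67-fold and a limma adjusted p of 0.717, and it turned to -0.05 without Jak2V617F replicate 2.

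Spry1 and Spry2 encode membrane-bound Sprouty proteins that hold back signalling from receptors to Ras and Raf. Spry1 was at 7.76, 8.74, 7.01 and 7.71 in the Jak2V617F arrays and at 8.16, 7.46, 7.48 and 7.97 in the wild type arrays. Jak2V617F cells held both the highest and the lowest array, replicates 2 and 3. The difference was 0.04 ± 0.33 (SE), with a 95% interval of 0.614-fold to 1.72-fold and a limma adjusted p of 0.964. Its sign turned in 5 of 18 alternative fits.

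Spry2 was at 11.52, 11.90, 11.73 and 11.52 in the Jak2V617F arrays and at 11.99, 11.73, 12.03 and 11.92 in the wild type arrays. Jak2V617F replicates 1 and 4 lay below every wild type array, Jak2V617F replicate 3 was level with wild type replicate 2, the lowest of its group, and Jak2V617F replicate 2 lay inside the wild type range. The difference was -0.25 ± 0.11 (SE), or 0.840-fold, with a 95% interval of 0.709-fold to 0.994-fold, an unadjusted limma p of 0.0439 and a limma adjusted p of 0.280. A second Spry2 probe set read 5.79 to 6.59 in Jak2V617F arrays and 5.33 to 6.18 in wild type arrays, in the range of the absent transcripts except for Jak2V617F replicate 2, just above it. It differed by 0.35, and with both probe sets averaged the Spry2 difference was 0.05 (limma adjusted p = 0.848).

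Spred1 encodes a membrane protein that brings the Ras inhibitor neurofibromin to Ras. It was at 11.68, 11.72, 11.76 and 11.63 in the Jak2V617F arrays and at 11.79, 11.89, 12.05 and 11.86 in the wild type arrays. The groups did not overlap, by a margin of 0.03, and the SD over arrays was 0.05 in Jak2V617F cells and 0.11 in wild type cells (n = 4 each). The difference was small, -0.20 ± 0.075 (SE) or 0.871-fold, with a 95% interval of 0.774-fold to 0.980-fold, an unadjusted limma p of 0.0262 and a limma adjusted p of 0.238. Spred1 had 7 further probe sets, more than any other gene of the 9, and all 8 had a difference below 0. They read the same arrays and several share a source sequence, so they are not independent readings. A dimmer probe set was at 7.75, 7.52, 6.80 and 7.37 in the Jak2V617F arrays and at 8.06, 7.80, 8.52 and 8.20 in the wild type arrays. These groups did not overlap either, and the difference was -0.79 ± 0.21 (SE), with a limma adjusted p of 0.135 over all probe sets. The other bright probe sets differed by -0.26, -0.18, -0.16, -0.12 and -0.04, all with overlapping arrays, and a probe set at 4.06 to 4.60 in all arrays was in the range of the absent transcripts. Which part of the Spred1 transcript each probe set reads was not determined here.

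Spred2 encodes a close relative of Spred1. It was at 9.80, 9.41, 9.44 and 9.25 in the Jak2V617F arrays and at 9.32, 9.22, 9.65 and 9.42 in the wild type arrays. The groups overlapped, and Jak2V617F replicate 1 was the highest array. The difference was 0.07 ± 0.13 (SE), with a 95% interval of 0.852-fold to 1.29-fold and a limma adjusted p of 0.802. Its 4 other probe sets differed by -0.36, -0.28, -0.25 and 0.16, so the direction of the Spred2 difference depended on the probe set. The probe set at 0.16 read 5.30 to 5.76, in the range of absent transcripts, and those at -0.36 and -0.25 reached into that range. The probe set at -0.28 read 8.34 to 9.41, above it. The mean of all probe sets, dim ones included, gave -0.13.

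**Figure D2:**
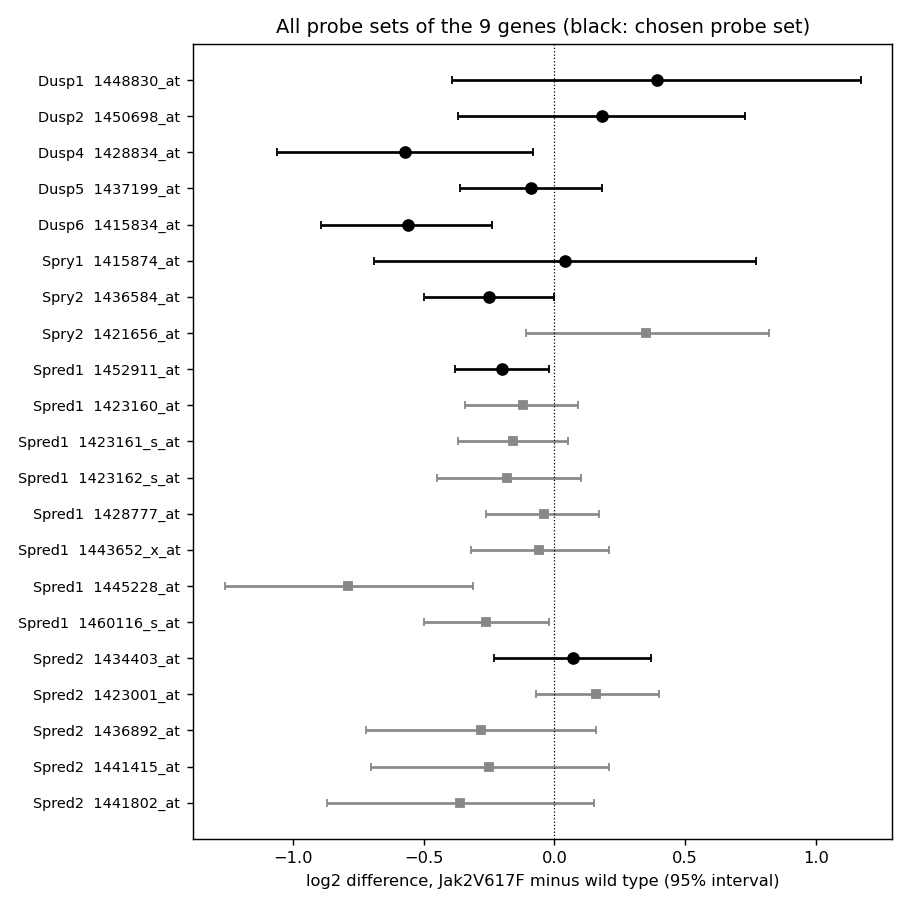
Log2 difference, Jak2V617F minus wild type, for every probe set of the 9 genes, with 95% intervals from the limma fit over all probe sets. Black circles are the chosen probe sets and grey squares the others; all 8 probe sets of Spred1 lie below 0, whereas those of Spry2 and Spred2 lie on both sides.

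Dusp1, Dusp2 and Spry1 shared a pattern that crossed the genotypes, with all of them highest in Jak2V617F replicate 2. Pearson's r over the 8 arrays was 0.88 between Dusp1 and Dusp2, 0.86 between Dusp1 and Spry1 and 0.88 between Dusp2 and Spry1, and after removing each genotype's mean it was 0.88, 0.90 and 0.89. Dusp6, Spry2 and Spred1 were also alike over all arrays, with r of 0.88 between Dusp6 and Spry2, 0.79 between Dusp6 and Spred1 and 0.71 between Spry2 and Spred1. With genotype means removed these were 0.76, 0.38 and 0.38, so part of that likeness was the difference between genotypes. Across these sets, pooled r was -0.09 for Dusp1 and Dusp6, 0.20 for Dusp2 and Dusp6, 0.37 for Dusp2 and Spry2 and -0.56 for Dusp1 and Spred1. With genotype means removed it was 0.37, 0.72, 0.74 and -0.50 for the same pairs, so within genotypes Dusp6 and Spry2 were closer to Dusp2 than to Spred1 and the sets were not separate. Dusp5 was close to Spry1, with r of 0.82 over all arrays and 0.87 with genotype means removed. Spearman's rho for that pair was 0.52, and r was 0.57 without Jak2V617F replicates 2 and 3. These correlations describe 8 arrays, which share an amplification and a normalization, and the grouping of the genes was made after their values were seen.

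**Figure D3:**
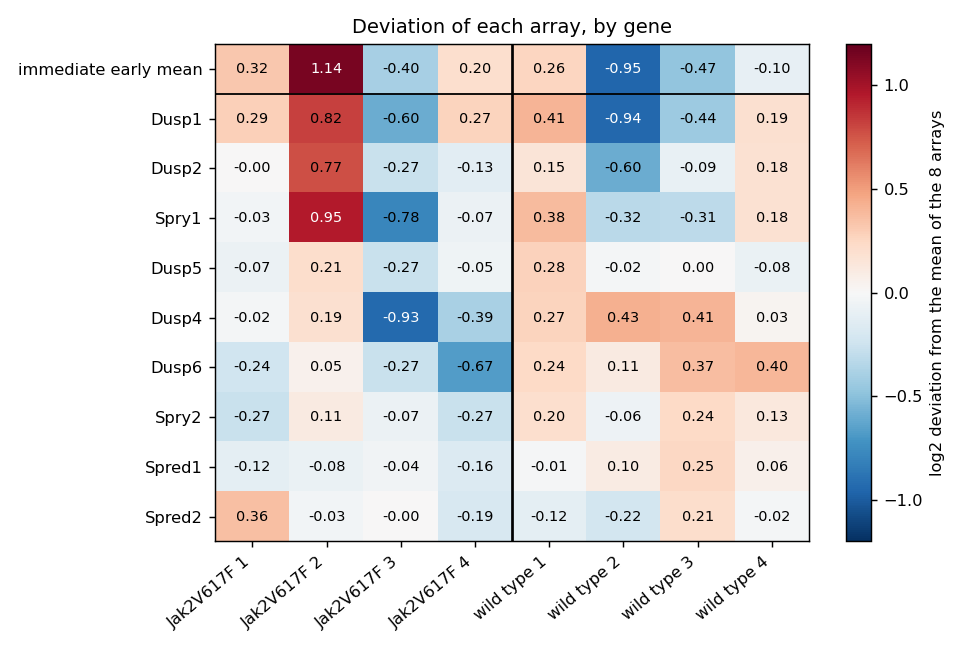
Log2 deviation of each array from the mean of all 8 arrays, for the mean of the immediate early genes and for each of the 9 genes, with Jak2V617F arrays left of the black line. Dusp1, Dusp2 and Spry1 follow the immediate early row, up in Jak2V617F replicate 2 and down in Jak2V617F replicate 3 and wild type replicate 2, whereas Dusp6 is below its mean in 3 of 4 Jak2V617F arrays and above it in all wild type arrays.

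Immediate early genes such as Fos, Jun and Egr1 are transcribed within minutes of stimulation, and also when cells are handled and sorted. The mean level of 17 measured immediate early genes, none of them among the 9, was 10.29, 11.11, 9.57 and 10.17 in the Jak2V617F arrays and 10.23, 9.02, 9.50 and 9.87 in the wild type arrays. The highest array was Jak2V617F replicate 2 and the lowest wild type replicate 2, and the groups overlapped. Of the 17 genes, 16 had a difference above 0, as did 62.6% of all genes, with a median of 0.57. None was called over all genes by limma, and 3 had an unadjusted p under 0.05, where 11.9% of all genes had one on the higher side. These were Egr2 (1.53 ± 0.54, SE), Junb (0.81 ± 0.30) and Ier2 (0.78 ± 0.33), with limma adjusted p of 0.221, 0.233 and 0.273. Egr2 was at 4.87 ± 0.33 in wild type arrays (SD, n = 4), near the level of absent transcripts.

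Over the 8 arrays the immediate early mean followed Dusp1 with r = 0.95 and Spearman's rho = 0.95, Dusp2 with r = 0.90 and rho = 0.74 and Spry1 with r = 0.83 and rho = 0.81. Without Jak2V617F replicate 2 and wild type replicate 2, the arrays farthest from the median, r was 0.93 for Dusp1, 0.47 for Dusp2 and 0.70 for Spry1, so the likeness of Dusp2 rested largely on those arrays. Within genotypes r was 0.97 for Dusp1, 0.94 for Dusp2 and 0.95 for Spry1. The pooled r to the immediate early mean was -0.19 for Dusp6, -0.01 for Spry2, -0.02 for Dusp4 and -0.61 for Spred1. Within genotypes it was 0.51 for Dusp6, 0.56 for Spry2, 0.54 for Dusp4 and -0.37 for Spred1, and the pooled values include the difference between genotypes. Dusp5 gave a pooled r of 0.55 with rho = 0.26, and an r of 0.86 within genotypes. With this mean as a covariate the limma difference of Dusp6 was -0.69 and that of Spred1 -0.16, whereas Dusp1 and Dusp2 both turned to -0.25 and Spry1 to -0.55, none of them called. Whether the immediate early level came from signalling in the mouse or from handling was not tested.

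**Figure D4:**
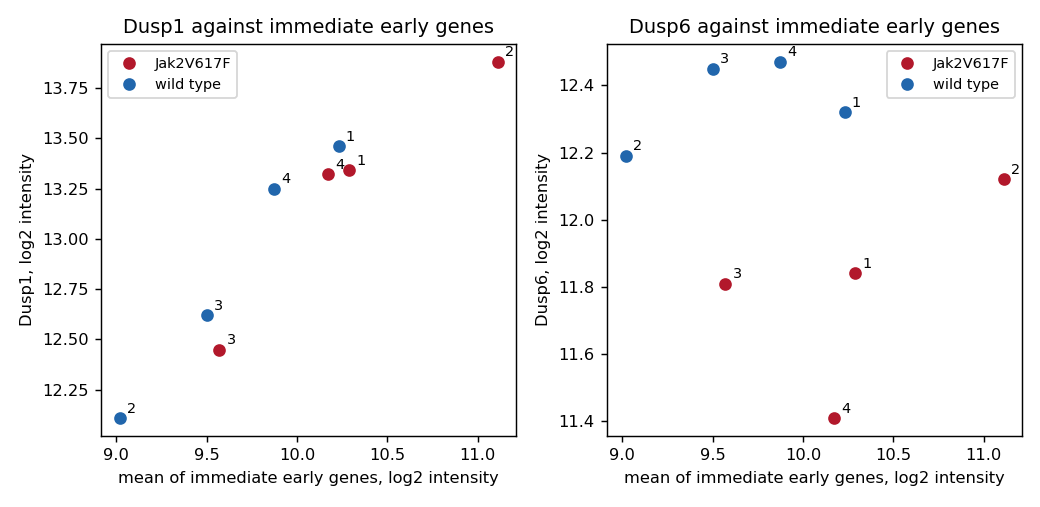
Dusp1 (left) and Dusp6 (right) against the mean of 17 immediate early genes, all in log2 intensity, 1 point per array with its replicate number, Jak2V617F in red and wild type in blue. Dusp1 follows the immediate early mean in both genotypes, whereas for Dusp6 all Jak2V617F points lie below all wild type points.

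The genes most like each member over the 8 arrays were searched among 9096 genes above the median level, so high values of r are reached by selection and carry no test. Dusp1 was most like Jun (r = 0.977) and Fos (0.971), subunits of the AP-1 factor, followed by Trnau1ap (0.968). Dusp2 was most like Zbtb7a (0.969), Jund (0.968), which is a further AP-1 subunit, and Fggy (0.957). Dusp6 was most like Ago1 (0.992), an Argonaute protein of RNA silencing, Otud3 (0.979) and Cdk17 (0.977). Spred1 was most like Prpf38b (0.995), Tmem263 (0.986) and Nhlrc2 (0.984), and Spry2 was most like Kmt5b (0.980), Ddx4 (0.973) and Hoxa3 (0.968). Dusp4 was most like Nt5dc3, Mier2 and Trim44, Dusp5 most like Ssh3, Tbc1d24 and Mblac2, Spry1 most like Imp3, Slc22a17 and Fbxo4, and Spred2 most like Akr1c13, Prpf19 and Adnp2, with r between 0.911 and 0.981. With any 1 array left out, r stayed at 0.967 or above for Dusp1 with Jun and at 0.983 or above for Dusp6 with Ago1. Other pairs fell further, to 0.847 for Dusp5 with Mblac2 and 0.888 for Dusp2 with Fggy.

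Promoters are shown for Dusp1 and Spry1, which varied with the immediate early genes, and for Dusp5 and Dusp6, the Erk-selective phosphatases. Each run is the 250 bases before the RefSeq transcription start, GRCm38.p6, 5′ to 3′ on the gene's strand, and 8 of the 9 genes had an entry. Capitals mark matches on either strand to TGACG, the core of the cAMP response element, or to the CArG box of serum response factor.
Dusp1 (chr17:26508473-26508722, minus strand): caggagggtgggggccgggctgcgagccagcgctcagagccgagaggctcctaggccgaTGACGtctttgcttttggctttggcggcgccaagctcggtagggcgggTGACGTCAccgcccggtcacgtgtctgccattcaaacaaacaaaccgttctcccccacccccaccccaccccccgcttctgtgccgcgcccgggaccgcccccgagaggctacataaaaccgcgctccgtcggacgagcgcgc
Spry1 (chr3:37639697-37639946, plus strand): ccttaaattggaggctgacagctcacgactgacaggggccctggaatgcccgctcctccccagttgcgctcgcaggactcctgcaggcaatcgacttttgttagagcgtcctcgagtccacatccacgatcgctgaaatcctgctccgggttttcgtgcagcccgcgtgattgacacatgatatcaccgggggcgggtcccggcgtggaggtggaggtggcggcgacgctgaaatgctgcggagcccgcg
Dusp5 (chr19:53528895-53529144, plus strand): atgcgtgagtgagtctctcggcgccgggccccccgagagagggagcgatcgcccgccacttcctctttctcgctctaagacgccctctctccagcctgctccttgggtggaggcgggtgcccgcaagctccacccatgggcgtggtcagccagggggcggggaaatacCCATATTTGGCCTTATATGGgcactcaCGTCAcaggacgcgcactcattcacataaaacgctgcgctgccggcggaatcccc
Dusp6 (chr10:99262981-99263230, plus strand): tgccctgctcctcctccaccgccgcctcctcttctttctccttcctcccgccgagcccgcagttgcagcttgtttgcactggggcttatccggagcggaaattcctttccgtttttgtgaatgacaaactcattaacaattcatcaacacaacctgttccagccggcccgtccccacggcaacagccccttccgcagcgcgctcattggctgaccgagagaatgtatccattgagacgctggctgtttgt
Dusp1 held TGACG 3 times, with 2 of these overlapping on opposite strands as TGACGTCA, and Dusp5 held 2 CArG boxes that adjoin and 1 TGACG core. Spred2 also held 1 TGACG core. TGACG occurs in 17.8% of 32851 mouse promoters of the same length and a CArG box in 1.47%. The letters of the AP-1 motif TGANTCA (6.75% of promoters), the Stat motif TTCNNNGAA (7.02%) and the Ets motif CCGGAA (12%) were searched too and were in none of the 8 windows. Dusp2 and Spry1 varied with Dusp1 yet held none of the 5 motifs in this window, and Dusp5, with both CArG boxes, was at r = 0.55 to the immediate early mean over all arrays and 0.86 within genotypes.

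Other genes of the cascade gave no call either. Over 7 further lists of the Ras and Erk pathway, 0 of 74 distinct measured genes passed limma's adjusted threshold, and 9 had an unadjusted p under 0.05, against 17.2% of all genes. Other MAPK phosphatase genes had 4 of 7 above 0 and a median of 0.08. Among them Dusp9, a cytoplasmic Erk phosphatase related to Dusp6, was at 7.46 ± 0.17 in Jak2V617F cells and 7.08 ± 0.25 in wild type cells (SD, n = 4 each), a difference of 0.38 (limma adjusted p = 0.223) opposite in sign to that of Dusp6. Dusp16 differed by -0.22, or -0.12 without Jak2V617F replicate 4, and Dusp7 by -0.12, or 0.07 with its probe sets averaged. Of the remaining Sprouty and Spred genes Spry4 differed by 0.33 (limma adjusted p = 0.197), at 5.52 ± 0.15 in Jak2V617F cells and 5.19 ± 0.15 in wild type cells (SD, n = 4 each), which is in the range of absent transcripts, and with its probe sets averaged the difference was 0.02 (limma adjusted p = 0.939). Spry3 was also in that range, and Spred3 differed by -0.17, which turned to 0.02 without Jak2V617F replicate 1.

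Receptors that signal to Ras had 5 of 9 measured members above 0 and a median of 0.02. The erythropoietin receptor gene Epor, whose product signals through Jak2, was at 8.57 ± 0.41 in Jak2V617F cells and 8.02 ± 0.29 in wild type cells (SD, n = 4 each), with a limma adjusted p of 0.246. Igf1r differed by -0.21 and Csf2rb, the shared receptor chain for interleukin 3 and related cytokines, by 0.19. Igf1r was -0.13 without Jak2V617F replicate 4, and Csf2rb was 0.06 without Jak2V617F replicate 3, 0.11 without wild type replicate 3 and 0.10 without wild type replicate 4. The adaptors and kinases that lead to Erk had 3 of 14 measured members above 0 and a median of -0.06, where 62.6% of all genes were above 0. No member of that list had an unadjusted limma p under 0.05. The scaffold gene Ksr1 differed by 0.26, or 0.14 with its probe sets averaged, the scaffold gene Lamtor3 by -0.18, or -0.11 without Jak2V617F replicate 1, and the Raf kinase gene Braf by -0.18. Inhibitors of Ras had 5 of 10 above 0, and the GTPase activating protein gene Rasa2 (-0.24), the adaptor gene Dok2 (-0.23) and Dab2ip (-0.10) had the smallest p, with limma adjusted p of 0.259, 0.282 and 0.463.

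Erk targets outside the Dusp, Sprouty and Spred families had 4 of 14 measured members above 0 and a median of -0.11. Ets2, a transcription factor that Erk phosphorylates, was at 13.27, 13.25, 13.18 and 13.08 in the Jak2V617F arrays and at 13.37, 13.46, 13.60 and 13.62 in the wild type arrays. Its groups did not overlap, like those of Dusp6. The difference was -0.32 ± 0.083 (SE) with a limma adjusted p of 0.140. Elk1, the Ets factor that binds beside serum response factor, differed by -0.14, or 0.01 with its probe sets averaged, and Rps6ka3, a kinase activated by Erk, by -0.19. The 4 members above 0 were Phlda1 (0.61), Ier3 (0.27), Etv4 (0.17) and Fosl1 (0.05), with Etv4 and Fosl1 in the range of absent transcripts. The share below 0, 10 of 14, stands beside 37.4% of all genes. This list mixes genes that Erk induces with genes, such as Ets2 and Rps6ka3, whose protein products Erk acts on. Its share is therefore not a measure of Erk output, and the list was not tested as a whole.

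**Figure D5:**
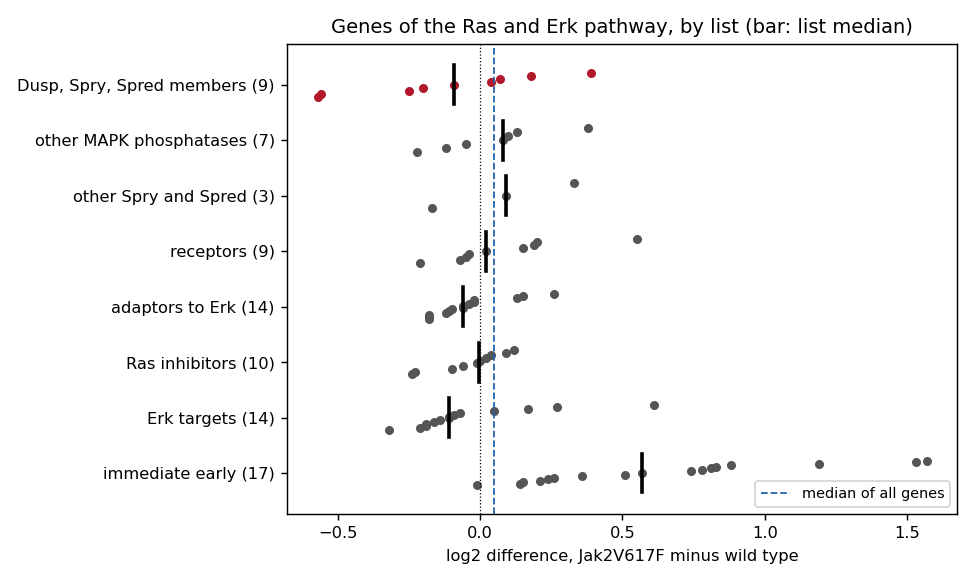
Log2 difference, Jak2V617F minus wild type, for each measured gene of the 9 feedback genes (red) and of 7 further lists (grey), with the list median as a black bar, the number of genes in brackets and the median of all genes, 0.05, as a dashed line. The immediate early list lies to the right, with a median of 0.57, and the feedback genes and Erk targets have medians of -0.09 and -0.11.

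Marker lists of several blood lineages lay higher in the mean in the Jak2V617F arrays. The mean levels of the erythroid, megakaryocyte, and granulocyte and monocyte lists overlapped between genotypes. The erythroid genes with the smallest p were Hbb-b2 (1.67) and Slc4a1 (2.32), and the megakaryocyte genes Clec1b (0.78) and Itga2b (0.46). Among granulocyte and monocyte genes they were Ltf (1.41) and S100a9 (0.43). Limma adjusted p of these genes lay between 0.103 and 0.299. Other members hardly differed, such as Mpo (0.05), Elane (-0.01), Lyz2 (0.04) and Hba-a2 (0.01). Whether these levels came from mature cells or from LSK cells themselves was not tested. Of 15 measured macrophage and dendritic cell genes 15 were above 0, and their mean level was 9.24 to 9.75 in Jak2V617F arrays and 8.61 to 9.15 in wild type arrays. On the scale of summed intensities, as log2, the same list was at 14.69 to 15.16 in Jak2V617F arrays and 13.92 to 14.59 in wild type arrays. On both scales the ranges of this list did not overlap between genotypes. Its members with the smallest p were H2-Ab1 and Cd68. H2-Ab1 averaged 12.46 in Jak2V617F arrays and 11.97 in wild type arrays, and Cd68 averaged 11.27 and 10.83. Their limma adjusted p was 0.114 and 0.141. The defining macrophage gene Adgre1 stood at 6.92 ± 0.47 in Jak2V617F arrays and 6.30 ± 0.28 in wild type arrays (SD, n = 4 each), close to the range of absent transcripts. Of 9 measured erythroid genes 9 were above 0, and their mean level was 9.25 to 10.26 in Jak2V617F arrays and 8.64 to 9.36 in wild type arrays, and the log2 of their summed level was 14.10 to 14.84 in Jak2V617F arrays and 13.97 to 14.57 in wild type arrays. Megakaryocyte genes were above 0 in 9 of 9, granulocyte and monocyte genes in 8 of 10 and lymphocyte genes in 5 of 8, with medians of 0.35, 0.25 and 0.03. The mean level of the megakaryocyte genes was 9.47 to 10.06 in Jak2V617F arrays and 9.24 to 9.80 in wild type arrays, and that of the granulocyte and monocyte genes was 12.02 to 12.40 in Jak2V617F arrays and 11.52 to 12.20 in wild type arrays. The lymphocyte genes averaged 7.79 to 8.03 in Jak2V617F arrays and 7.84 to 8.05 in wild type arrays. Of the 8 LSK markers 6 were below 0, with Mecom at -0.34 (limma adjusted p = 0.154), or -0.14 with its probe sets averaged (limma adjusted p = 0.385). None of these markers was called over all genes by limma. An unadjusted p under 0.05 was found for 9 macrophage and dendritic cell, 4 erythroid, 4 megakaryocyte, 1 granulocyte and monocyte, 2 lymphocyte and 1 LSK marker, where 17.2% of all genes had such a p, 11.9% on the higher side and 5.23% on the lower, and 62.6% of all genes were above 0. The single granulocyte and monocyte gene of 10, on the higher side, and the single LSK marker of 8, on the lower side, are too few to set apart from those shares. The part of these markers in the lower levels of Dusp6, Dusp4, Spry2 and Spred1 was not tested.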

How the data were processed

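RNA of sorted LSK cells was purified with a Qiagen RNeasy Micro kit, amplified linearly with NuGEN Ovation reagents and hybridised as biotin-labelled cDNA to Affymetrix mouse expression arrays, per the labels' protocols. Log2 intensities per probe set were deposited, for which RMA, affy and R 2.11.0 are named in the submitters' processing notes. Their scale follows from the values themselves. The sources used here name no chip definition or genome build, and scan dates were not used here. Quantile normalization within RMA hides a shift shared by most transcripts.

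Of 45101 probe sets, 64 controls and those without exactly 1 symbol in the platform annotation were left out, which gave 18193 genes. Genotype came from the labels, whose titles name a mouse genotype and a replicate number. The titles do not say whether each array was from a single animal or a pool. Differences were fitted with limma 3.58.1 in R 4.3.3, two-sided and without covariates, and p-values were adjusted over all genes by the Benjamini-Hochberg method (threshold 0.05). The number of arrays limits the precision. The fit was also run on simulated data with independent noise for each gene, without patterns shared between genes as in these arrays. How often it called differences of the size seen for Dusp6 is not given here. The 9 members and all lists were chosen with earlier results of these data known. From each pathway list up to 3 genes and from each marker list up to 2, those with the smallest p, were eligible to be named, with the 3 genes most like each member. Kit, Adgre1, the absent transcripts and the dimmer probe set of Spred1 were picked after their values were seen. So were Mpo, Elane, Lyz2 and Hba-a2, for their small differences, and Phlda1, Ier3, Etv4 and Fosl1, for differences above 0. List genes without a singly named probe set were not analysed here. Correlations are descriptive and carry no p. Alternatives were the replicate block, median centring, a filter on dim genes, other probe set rules, other priors and weights, sex-linked expression and each array left out. The arrays with low Xist alone and the immediate early mean as a covariate were added after seeing the data.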

Additional observations from a re-analysis of the deposited data

How the results depend on the processing

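The count of called members was 0 in all 18 alternative fits and at an adjusted p under 0.1 in the fit as reported, where 199 genes passed instead of 30. Dusp6, Dusp4 and Spred1 kept their direction in all 18, and Spry2 in all but the mean of probe sets (0.05). Signs turned for Spred2 with the mean of probe sets (-0.13), in arrays with low Xist alone (-0.05) and, over arrays left out in turn, from -0.04 to 0.15. Spry1 was -0.06 with sex-linked expression as a covariate and -0.27 to 0.30 with arrays left out. Dusp2 was -0.05 to 0.30 with arrays left out, and Dusp5 was 0.07 in arrays with low Xist alone. With the immediate early mean as a covariate Dusp1 and Dusp2 were -0.25 and Spry1 was -0.55. With the mean of probe sets Dusp7 was 0.07 and Elk1 0.01, and with arrays left out Spred3 lay between -0.26 and 0.02 and Spry3 between -0.01 and 0.15. The cause of these turns was not tested.

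The count of called genes was 47 with median centring, 49 with the mean of probe sets, 75 with a trended robust prior, 60 with sex-linked expression as a covariate, 10 with the immediate early mean as a covariate and 13 to 40 with 1 array left out. Replicate numbers are shared between genotypes in the titles, but same-numbered arrays did not deviate together (r = -0.0233, -0.221, -0.0558 and 0.103 for numbers 1 to 4), so the number is not taken as a pairing. With it as a block 8 genes were called and Dusp6 had a limma adjusted p of 0.242. The median of the members was -0.26 to -0.01 over all alternatives. With 4 arrays a group, differences of the size seen for Spry1 and Dusp1 are within the spread between arrays.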
